A study of Mus musculus with 8 samples.

Results

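Angiotensinogen, the precursor protein of all angiotensin peptides, and 7 genes whose products cut or bind those peptides were followed in sorted stromal cells of mouse muscle. These 8 genes are Agt, Ace, Agtr1a, Agtr2, Enpep, Anpep, Lnpep and Mme. They are 8 of the 24419 rows of the deposited count table and were taken by symbol. The set was drawn up with measured values of these libraries already known, so the levels and changes of its members are given as a description. No p-value of a member is printed, only whether it passed a threshold, which is no test of the set.

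RNA was sequenced from fibroadipogenic progenitors (FAPs), a stromal population of muscle able to form fibroblasts and fat cells, sorted from the hindlimbs of male C57BL/6J mice. In the miR-27a-KD group (n = 3), KPCY cells, a mouse pancreatic cancer line, had a lentiviral vector blocking miR-27a-3p and were injected into the pancreas. In the KPC Scr group (n = 3), the injected KPCY cells carried a scrambled sequence from the same kind of vector. The Sham group (n = 2) had surgery and received no tumour cells. Puromycin selection of both lines lasted 7 days at 2 µg/mL, and 50 µL of cells were injected. The inhibitor was thus in the tumour cells and not in the sequenced progenitors, and each tumour arm came from 1 stable line. Sorted cells lacked CD31, CD45, α7-integrin and propidium iodide and carried SCA-1 and Hoechst stain. Mouse ages and collection times were not among the labels read.

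In the renin-angiotensin system, renin cuts angiotensinogen to angiotensin I, and angiotensin-converting enzyme turns angiotensin I into angiotensin II. Angiotensin II acts mainly through the AT1 receptor, which raises blood pressure and promotes fibrosis, while the AT2 receptor often opposes it. Cell-surface peptidases shorten or destroy the peptides. The liver is the main source of circulating angiotensinogen, and adipose and stromal cells also make it.

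3 sequences show what the Agt transcript encodes, where it starts and which microRNA the study inhibited. The first is the part of exon 2 of 5 of Agt (transcript ENSMUST00000063278.6, GENCODE M21) that encodes angiotensin I, codons 30 to 39 of 482, at chr8:124564450-124564479 on the minus strand of GRCm38. Capitals mark the codons of angiotensin II, and the lower-case end is the part that converting enzyme removes. The second is the window from 250 bases before to 50 bases after the start of Agt (RefSeq, GRCm38.p6, chr8:124569657-124569956, minus strand). Its capitals mark a TTCNNNGAA match and a TATAAA match. The third is mature mmu-miR-27a-3p (RefSeq, GRCm38.p6, chr8:84208727-84208747, plus strand), with its seed in capitals.
Agt, angiotensin I coding stretch: GACCGCGTATACATCCACCCCTTCcatctc
Agt, promoter window: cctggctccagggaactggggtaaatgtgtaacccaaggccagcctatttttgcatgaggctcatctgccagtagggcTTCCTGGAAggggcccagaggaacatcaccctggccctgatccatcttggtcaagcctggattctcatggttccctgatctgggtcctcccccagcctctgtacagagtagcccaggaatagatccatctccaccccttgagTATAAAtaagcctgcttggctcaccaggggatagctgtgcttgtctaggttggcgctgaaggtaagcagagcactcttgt
mmu-miR-27a-3p: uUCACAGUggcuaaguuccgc

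In the Agt window, TATAAA began 30 bases before the start site (position -30) and TTCCTGGAA, a match to the STAT letters TTCNNNGAA, began at position -172. Searched on both strands, TATAAA was in 13.6% and TTCNNNGAA in 8.30% of the 32851 promoter windows of the table. TTCNNNGAA reads the same on both strands, so each match is 1 stretch. Of the 7 members with a promoter entry, Enpep (position -141) and 1 of the 3 Mme starts (position -166) also held it. TGTTCT, the glucocorticoid receptor letters, and TTNNGNAA, the C/EBP letters, were not in the Agt window, and stood in 19.0% and 40.7% of all windows. ACTGTGA, the complement of the miR-27a-3p seed, occurred once in the Mme 3′ UTR and in none of the other 7 members' 3′ UTRs, against 15.95% of the 12486 tested genes that had a 3′ UTR. A match is a run of letters in the window and nothing more was measured there.

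The libraries held between 15647436 and 28340450 counts, and 13646 genes, all 8 members among them, passed the filter on low counts. On the first principal component, which carried 61.1% of the variance, KPC Scr 1 (115) and KPC Scr 3 (92.0) stood apart from KPC Scr 2 (-12.3) and from the other 5 libraries (-47.7 to -32.3). KPC Scr 1 also held liver transcripts. 12 hepatocyte genes, a list added after the data were seen, summed to 773 normalised CPM there (CPM, read counts scaled to the size of the library), with 12431 albumin reads, and none of the 12 was at 0. In the other 7 libraries they summed to between 0 and 0.338 CPM, and 9 to 12 of the 12 were at 0. By number, 89 genes had at least 40 reads in KPC Scr 1 and at most 2 in every other library, and no other library had such a gene. The 10 FAP markers were above 0 in every library and summed to 43941 to 50012 CPM in miR-27a-KD, 25245 to 43311 CPM in KPC Scr and 42369 to 51083 CPM in Sham. In these bulk libraries, fewer cells of a type and less RNA per cell cannot be told apart.

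Agt (ENSMUSG00000031980.9, chromosome 8, 124556534 to 124569706, minus strand) was low in Sham, high in KPC Scr and in between in miR-27a-KD. It had 25.4, 29.8 and 21.9 CPM in the miR-27a-KD libraries 1 to 3, 103, 81.2 and 81.4 CPM in the KPC Scr libraries 1 to 3, and 3.04 and 5.30 CPM in the Sham libraries. The reads behind these values were 495, 534 and 501 in miR-27a-KD, 2627, 1922 and 1292 in KPC Scr, and 48 and 95 in Sham. No library of one group reached the range of another.

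The Agt mean was 88.5 ± 12.5 CPM in KPC Scr (SD, n = 3) and 4.17 ± 1.60 CPM in Sham (n = 2), a log2 change of 4.40 ± 0.30 (SE). In miR-27a-KD it was 25.7 ± 3.95 CPM (n = 3), a log2 change of -1.79 ± 0.21 against KPC Scr and 2.61 ± 0.29 against Sham. KPC Scr 2 and KPC Scr 3, whose hepatocyte genes summed to 0.338 and 0.0630 CPM, had 81.2 and 81.4 CPM of Agt. Without KPC Scr 1 the log2 changes were 4.27 for KPC Scr against Sham and -1.66 for miR-27a-KD against KPC Scr. Mature adipocytes also make Agt, and their 8 marker genes summed to 2.82 to 7.14 CPM in miR-27a-KD, 20.4 to 46.9 CPM in KPC Scr and 1.14 to 3.79 CPM in Sham, with 3 to 7 of the 8 at 0. Most of the KPC Scr sum was 1 gene, Plin4, a lipid droplet protein, at 20.1, 18.8 and 41.1 CPM. Adipoq (adiponectin) was at 0, 0 and 0.306 CPM in miR-27a-KD, 0.627, 0.507 and 0.882 CPM in KPC Scr, and 0 and 0.0558 CPM in Sham. Lep (leptin) was at 0 in all 8 libraries. All 5 adipocyte markers that passed the filter had positive log2 changes in KPC Scr against Sham (median 4.19). Of the 5, edgeR called 1 higher there, Plin4, beside 1.10% of all genes. All 5 had negative log2 changes in miR-27a-KD against KPC Scr (median -2.43), where none was called. The 10 muscle fibre markers also summed higher in KPC Scr without overlap, at 47.3 to 58.3 CPM in miR-27a-KD, 80.7 to 297 CPM in KPC Scr and 33.5 to 66.3 CPM in Sham, with at most 1 of the 10 at 0. The 9 neutrophil markers summed to 2.49 to 4.88 CPM in miR-27a-KD, 3.72 to 19.4 CPM in KPC Scr and 0.0558 to 3.29 CPM in Sham, with 1 to 8 of the 9 at 0. The part of these cell types in the Agt values was not tested.

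**Figure D1:**
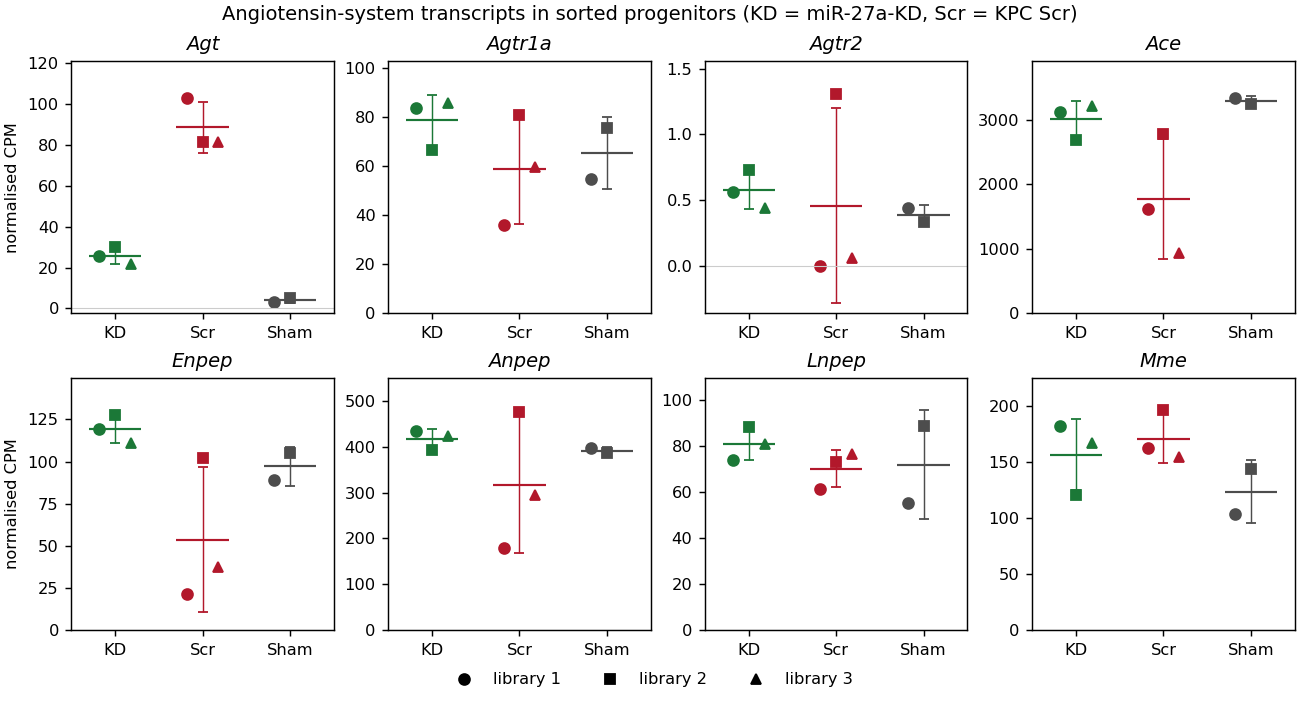
Normalised CPM (y axes) of the 8 genes in every library, by group (KD, miR-27a-KD; Scr, KPC Scr). Marker shapes are libraries 1 to 3, horizontal lines are means and bars are SDs (n = 3, 3 and 2). Agt lies at 21.9 to 29.8 CPM in KD, 81.2 to 103 CPM in Scr and 3.04 to 5.30 CPM in Sham, while Scr library 2 lies near the KD and Sham libraries for Ace, Enpep and Anpep.

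Ace (ENSMUSG00000020681.14, chromosome 11, 105967945 to 105989964, plus strand), which forms angiotensin II and also breaks down bradykinin, was the most abundant of the 8. It had 3125, 2679 and 3206 CPM in the miR-27a-KD libraries, 1621, 2775 and 933 CPM in the KPC Scr libraries, and 3342 and 3244 CPM in the Sham libraries. All 3 KPC Scr libraries lay below both Sham libraries, and KPC Scr 2 lay within the miR-27a-KD range. The log2 changes were -0.89 ± 0.38 for KPC Scr against Sham, 0.76 ± 0.35 for miR-27a-KD against KPC Scr and -0.13 ± 0.38 for miR-27a-KD against Sham, and none was called. Of the exon bases of Ace, 295 (5.58%) overlap the antisense gene Gm11651. The kit keeps strand, but the strand setting of the counting is unknown, so reads of the pair there may be mixed.

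Agtr1a (ENSMUSG00000049115.15, chromosome 13, 30336441 to 30382867, plus strand) encodes the main AT1 receptor of mice. It had 83.9, 66.9 and 85.9 CPM in miR-27a-KD, 36.2, 80.8 and 59.9 CPM in KPC Scr, and 55.0 and 75.7 CPM in Sham. The 3 groups overlapped, with KPC Scr 1 the lowest library. The log2 change was -0.15 ± 0.31 for KPC Scr against Sham and 0.42 ± 0.28 for miR-27a-KD against KPC Scr.

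Agtr2 (ENSMUSG00000068122.10, chromosome X, 21484544 to 21489164, plus strand), the AT2 receptor gene, was near the limit of detection. Its reads numbered 11, 13 and 10 in miR-27a-KD, 0, 31 and 1 in KPC Scr, and 7 and 6 in Sham. KPC Scr thus held both the highest and the lowest library of the study, and its log2 changes of 0.33 ± 1.27 against Sham and 0.21 ± 0.99 for miR-27a-KD against KPC Scr had errors wider than the values. The 3 KPC Scr libraries differed from each other by more than the group means did.

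The peptidases that remove angiotensin peptides came next. Enpep (ENSMUSG00000028024.14, chromosome 3, 129269175 to 129332720, minus strand) encodes aminopeptidase A, which turns angiotensin II into angiotensin III. It had 119, 128 and 111 CPM in miR-27a-KD, 21.4, 102 and 37.2 CPM in KPC Scr, and 89.1 and 105 CPM in Sham. KPC Scr 1 and KPC Scr 3 were the lowest libraries, and every miR-27a-KD library was above all KPC Scr and Sham libraries. The log2 changes were -0.85 ± 0.51 for KPC Scr against Sham, 1.15 ± 0.46 for miR-27a-KD against KPC Scr and 0.30 ± 0.52 for miR-27a-KD against Sham.

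Anpep (ENSMUSG00000039062.15, chromosome 7, 79821803 to 79861059, minus strand) encodes aminopeptidase N, which cuts angiotensin III further and is a surface protein of many stromal cells. It had 434, 393 and 423 CPM in miR-27a-KD, 180, 476 and 294 CPM in KPC Scr, and 398 and 386 CPM in Sham. As with Ace and Enpep, KPC Scr 2 had the highest value of its group. The log2 changes were -0.31 ± 0.33 for KPC Scr against Sham and 0.39 ± 0.30 for miR-27a-KD against KPC Scr.

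Lnpep (ENSMUSG00000023845.7, chromosome 17, 17521410 to 17625050, minus strand) encodes insulin-regulated aminopeptidase, a binding site of angiotensin IV. It had 73.9, 88.2 and 80.6 CPM in miR-27a-KD, 61.1, 72.9 and 76.4 CPM in KPC Scr, and 55.0 and 88.5 CPM in Sham. The groups overlapped in every pair, and the 2 Sham libraries held the lowest and the highest value of all 8.

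Mme (ENSMUSG00000027820.12, chromosome 3, 63241537 to 63386030, plus strand) encodes neprilysin, which makes angiotensin 1-7 and degrades natriuretic peptides. It had 182, 121 and 167 CPM in miR-27a-KD, 162, 196 and 154 CPM in KPC Scr, and 104 and 143 CPM in Sham. KPC Scr lay above Sham in every library, with a log2 change of 0.47 ± 0.23, and miR-27a-KD overlapped both groups.

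Of the 8 members, 1 was called higher in KPC Scr against Sham (Agt) at an edgeR adjusted p under 0.05, beside 1.58% of all genes called and 1.10% called higher. In miR-27a-KD against KPC Scr, 1 was called lower (Agt), beside 0.0513% of all genes called and 0.0440% called lower. In miR-27a-KD against Sham, none was called by edgeR's quasi-likelihood test, beside 0.00733% of all genes, with 1 member at an unadjusted p under 0.05 (2.37% of all genes) and 1 called by DESeq2 (0.183% of all genes). Groups did not overlap for 3 members in KPC Scr against Sham (Agt and Mme higher, Ace lower), beside 20.2% of all genes that were higher and 20.8% that were lower. They did not overlap for 2 members in miR-27a-KD against KPC Scr (Enpep higher, Agt lower), beside 17.5% and 16.7%, and for 3 in miR-27a-KD against Sham (Agt and Enpep higher, Ace lower), beside 13.8% and 13.5%. The median log2 change of the members was -0.09, 0.30 and 0.28 in those 3 comparisons, where that of all genes was 0.00180, 0.0140 and -0.00100. The comparisons share libraries, so they are not independent of each other, and the counts of a set chosen on these data are no test.

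The direction of Agt was the same throughout, as its groups do not overlap and losing a library could hardly turn it. The Agt call depended on single libraries. In KPC Scr against Sham it held in 15 of 16 alternative settings and was lost without Sham 1, where the log2 change was 4.06. In miR-27a-KD against KPC Scr it held in 6 of 16, with log2 changes between -1.90 and -1.66, and it was lost without any single library other than KPC Scr 2. In miR-27a-KD against Sham it was not called, and 5 of 16 alternatives called it, with log2 changes between 2.27 and 3.08.

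KPC Scr 2 also decided the calls of the other members. Without it, 4 members were called in KPC Scr against Sham, where 51.0% of all genes were (25.4% higher and 25.6% lower): Agt was higher, and Ace (-1.36 ± 0.24, log2), Enpep (-1.75 ± 0.22) and Anpep (-0.72 ± 0.20) were lower. Without it, 6 were called in miR-27a-KD against KPC Scr, where 54.0% of all genes were (27.3% higher and 26.6% lower). Agt was then lower (-1.86 ± 0.18), and Agtr1a (0.72 ± 0.22), Agtr2 (4.21 ± 1.45), Ace (1.23 ± 0.22), Enpep (2.04 ± 0.21) and Anpep (0.81 ± 0.18) were higher. In miR-27a-KD against Sham, 1 member was called without it (Agt, higher), beside 0.236% of all genes (0.170% higher and 0.0664% lower). The summed FAP markers were 30162 CPM in KPC Scr 1 and 25245 CPM in KPC Scr 3, against 43311 CPM in KPC Scr 2. Most of each sum came from the matrix genes Dcn, Col1a1 and Col3a1. The markers did not all move together. Of the 10, 8 had a negative and 2 a positive log2 change in KPC Scr against Sham (median -1.18). In miR-27a-KD against KPC Scr, 8 were positive and 2 negative (median 1.21), and edgeR called none in either comparison. Pdgfra, a receptor that defines FAPs, had 1477, 1449 and 1467 CPM in miR-27a-KD, 1576, 1586 and 1519 CPM in KPC Scr, and 1256 and 1588 CPM in Sham. Dcn (decorin) had 24984, 19625 and 21059 CPM in KPC Scr, against 11101 and 14630 CPM in Sham, and so was higher in every KPC Scr library. Cd34, a surface marker, had 213, 1179 and 241 CPM in KPC Scr, against 2250 and 2156 CPM in Sham, and so was lower in every KPC Scr library. Ly6a, the gene of SCA-1, had 451, 1136 and 436 CPM in KPC Scr, against 951 and 933 CPM in Sham. The part of these markers in the levels of the peptidases was not tested.

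**Figure D2:**
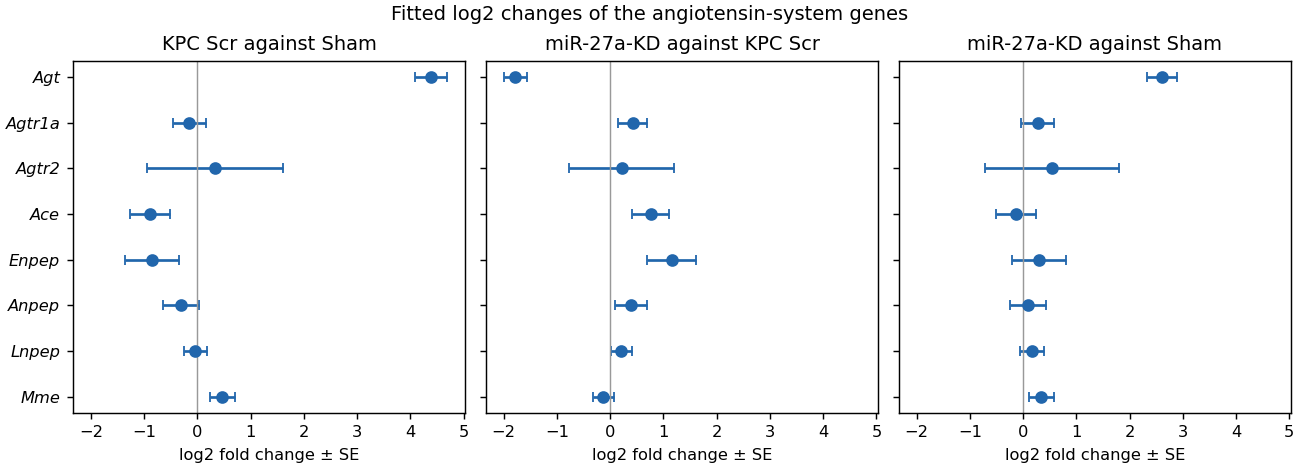
Fitted log2 fold changes (x axes, points) with SEs (bars) of the 8 genes (rows) in 3 comparisons. Agt is at 4.40 in KPC Scr against Sham, -1.79 in miR-27a-KD against KPC Scr and 2.61 in miR-27a-KD against Sham, and the widest bars belong to Agtr2.

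Levels of different genes were compared per kilobase of exon, with the exons of all annotated transcripts of a gene merged. Ranks of genes with close levels, such as Agt and Mme in miR-27a-KD, rest on this choice of length. Ace was the highest and Agtr2 the lowest of the 8 in every library, with mean Ace levels of 568, 336 and 623 CPM per kb in miR-27a-KD, KPC Scr and Sham. Anpep ranked 2 in 7 of the 8 libraries. Agt changed places. It ranked 6, 5 and 6 of the 8 in the miR-27a-KD libraries, 2, 3 and 3 in the KPC Scr libraries, and 7 in both Sham libraries. Its mean level was 13.6 CPM per kb in miR-27a-KD, 46.8 CPM per kb in KPC Scr and 2.204 CPM per kb in Sham. The Agt level was 2.27%, 3.11% and 1.91% of the Ace level per kb in miR-27a-KD, 17.8%, 8.18% and 24.4% in KPC Scr, and 0.254% and 0.457% in Sham. The substrate transcript was thus scarcer than the converting-enzyme transcript in all 8 libraries, and the groups did not overlap in this share. Agtr1a (28.3, 21.2 and 23.5 CPM per kb) and Mme (13.6, 14.8 and 10.7 CPM per kb) lay between, and neighbours such as Agtr1a and Enpep exchanged places between libraries.

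**Figure D3:**
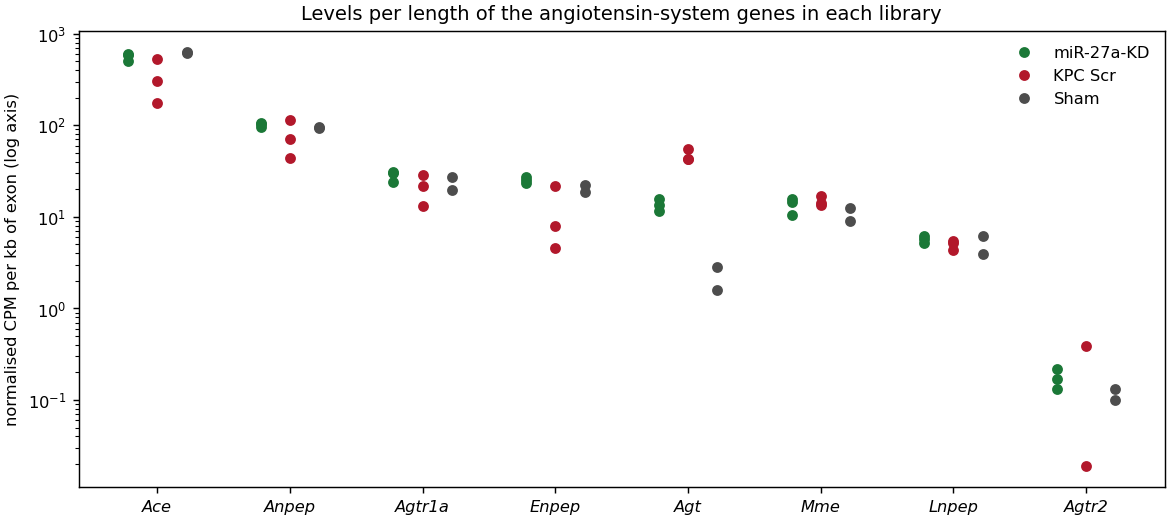
Normalised CPM per kb of exon (y axis, log scale) of each gene in each library; points are libraries, coloured by group. Ace leads in every library, Agt spans 1.61 to 54.4 CPM per kb over the 8 libraries, and the KPC Scr 1 value of Agtr2 is 0 and cannot be drawn on a log axis.

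6 genes had the profile most like that of Agt over the 8 libraries, by the smallest root mean square difference of centred log2 CPM among 10270 genes with a mean of at least 5 CPM. They were C4b (0.388), Serpina3n (0.439), Cxcl13 (0.448), Serpina3m (0.513), Prkg1 (0.540) and Masp1 (0.605), where the median gene was at 1.74. C4b and Masp1 belong to the complement system, Serpina3n and Serpina3m are protease inhibitors, Cxcl13 is a chemokine that attracts B cells, and Prkg1 is a cyclic GMP kinase. C4b had 1514, 1320 and 1466 CPM in miR-27a-KD, 3477, 4208 and 4267 CPM in KPC Scr, and 279.9 and 324 CPM in Sham. Serpina3n had 365, 254 and 269 CPM in miR-27a-KD, 2132, 1422 and 1382 CPM in KPC Scr, and 76.2 and 76.4 CPM in Sham. In both genes every KPC Scr library was above every miR-27a-KD library, and every miR-27a-KD library above both Sham libraries, as for Agt. The 6 were chosen for this likeness, so it is no test.

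**Figure D4:**
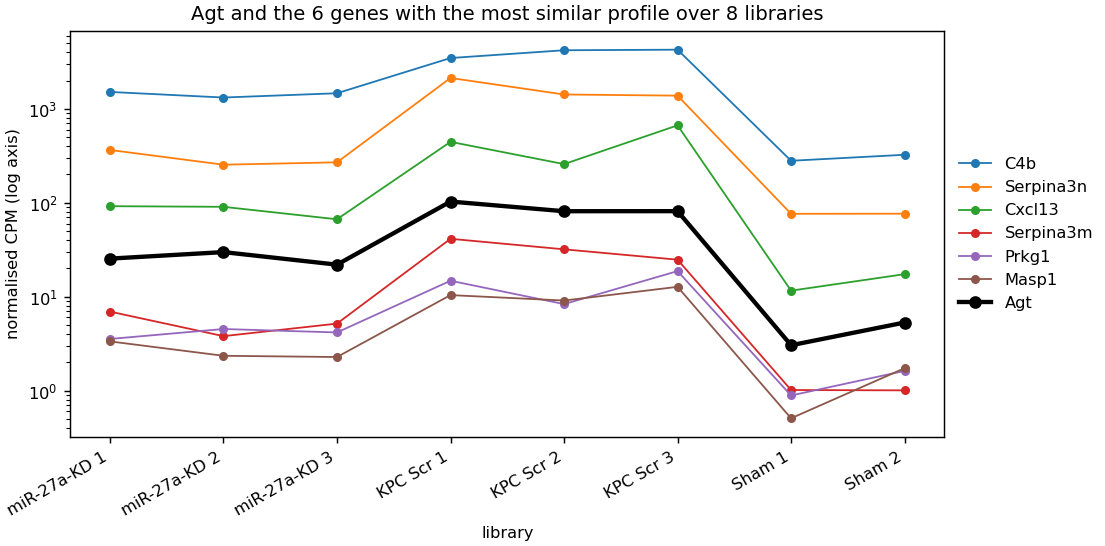
Normalised CPM (y axis, log scale) of Agt (black) and the 6 genes most like it in each of the 8 libraries (x axis); the lines only link the points of 1 gene. All 7 genes are highest in the KPC Scr libraries and lowest in the Sham libraries, with C4b at 279.9 to 4267 CPM and Agt at 3.04 to 103 CPM.

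None of the other genes of the renin-angiotensin pathway passed the test. Of 19 listed, 10 passed the filter, and edgeR called none in any of the 3 comparisons. In KPC Scr against Sham, 3 were at an unadjusted p under 0.05 and DESeq2 called 3 (Ctsa, Prcp and Agtrap), where 29.2% and 15.2% of all genes were. Ctsa, the lysosomal cathepsin A, had 146, 131 and 150 CPM in miR-27a-KD, 215, 221 and 241 CPM in KPC Scr, and 138 and 137 CPM in Sham. Its log2 change was 0.71 ± 0.16 in KPC Scr against Sham (edgeR adjusted p = 0.0576) and -0.66 ± 0.14 in miR-27a-KD against KPC Scr (edgeR adjusted p = 0.0684). Prcp, a carboxypeptidase that makes angiotensin 1-7, had 21.9, 28.7 and 22.5 CPM in miR-27a-KD, 5.56, 14.9 and 5.04 CPM in KPC Scr, and 25.3 and 25.6 CPM in Sham. The other 9 were not tested. Ren1 (renin), Agtr1b and Mas1 (the angiotensin 1-7 receptor) had 0 reads in all 8 libraries.

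Among 14 tested regulators reported for Agt transcription, 4 were called higher in KPC Scr against Sham by edgeR and none lower, beside 1.10% and 0.476% of all genes. There 6 stood at an unadjusted p under 0.05 and DESeq2 called 6, beside 29.2% and 15.2% of all genes. Nr3c1, the glucocorticoid receptor, was 1 of those 6 of DESeq2 and was lower in KPC Scr (149, 151 and 132 CPM) than in Sham (212 and 224 CPM). Of the 14, 9 had positive and 5 negative log2 changes. The median log2 change of the list was 0.32. This and the other gene lists were chosen with earlier results of these data known. Their counts and p-values are therefore a description and no test. Stat3, which carries interleukin-6 signals, had 230, 200 and 240 CPM in miR-27a-KD, 599, 343 and 530 CPM in KPC Scr, and 190 and 177 CPM in Sham, a log2 change of 1.42 ± 0.25 in KPC Scr against Sham (edgeR adjusted p = 0.0372). Cebpd, a C/EBP factor of the acute phase, had 917, 704 and 847 CPM in miR-27a-KD, 2305, 1207 and 2339 CPM in KPC Scr, and 465 and 471 CPM in Sham. Its log2 change was 2.06 ± 0.32 in KPC Scr against Sham (edgeR adjusted p = 0.0252). Cebpb rose by 2.23 ± 0.42 (edgeR adjusted p = 0.0431) and Cebpa by 0.90 ± 0.18 (edgeR adjusted p = 0.0466) on the log2 scale. In miR-27a-KD against KPC Scr, none of the 14 was called by edgeR, with 8 at an unadjusted p under 0.05 (32.4% of all genes) and 6 called by DESeq2 (17.0% of all genes). There Stat3 had a log2 change of -1.13 ± 0.22 (edgeR adjusted p = 0.0610) and Cebpd of -1.25 ± 0.27 (edgeR adjusted p = 0.0684). Hnf4a, a liver regulator of Agt, had 70 reads in KPC Scr 1 and 0 in the other 7 libraries.

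**Figure D5:**
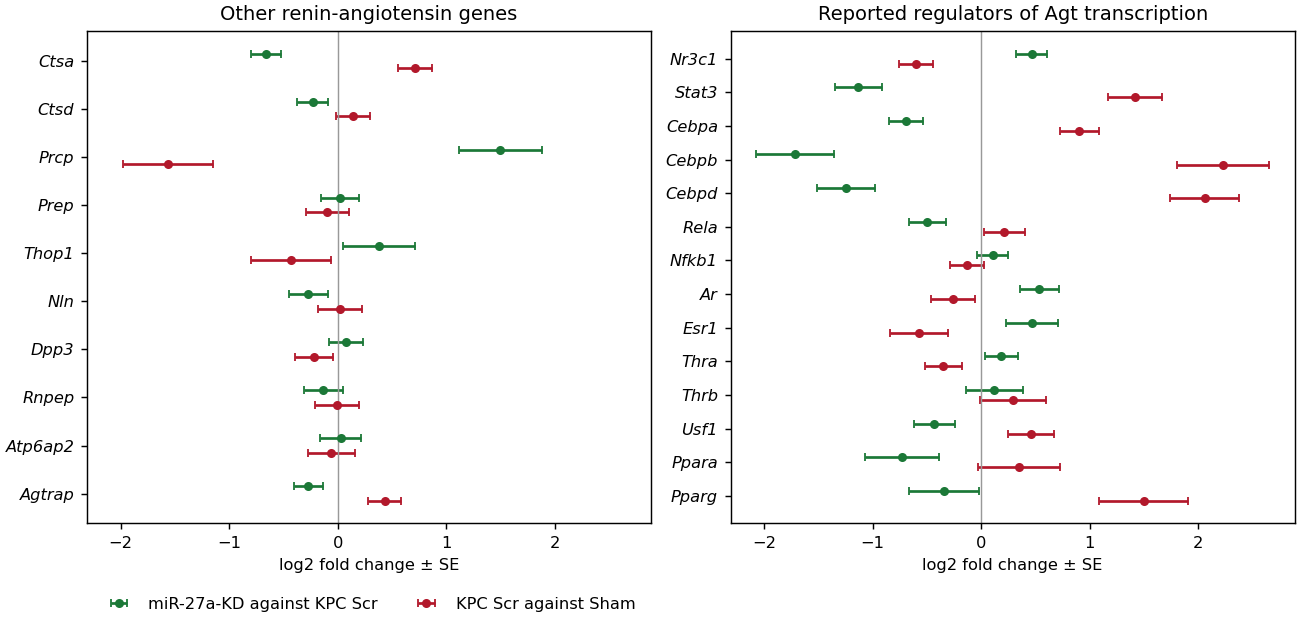
Fitted log2 fold changes (x axes, points) with SEs (bars) of 10 other renin-angiotensin genes (left) and 14 reported regulators of Agt transcription (right). In KPC Scr against Sham, Stat3, Cebpa, Cebpb and Cebpd lie between 0.90 and 2.23, and the left panel has no called gene.

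Downstream, 1 of 18 tested AT1 signalling genes was called higher by edgeR in KPC Scr against Sham, beside 1.10% of all genes. At an edgeR unadjusted p under 0.05 stood 3 of the 18, beside 29.2% of all genes. DESeq2 called 2 of the 18, Nox4 higher and Rhoa lower, beside 15.2% of all genes. Nox4, an NADPH oxidase, had 92.0, 52.8 and 66.3 CPM in miR-27a-KD, 145, 117 and 189 CPM in KPC Scr, and 34.5 and 48.8 CPM in Sham. Its log2 change was 1.85 ± 0.31 in KPC Scr against Sham (edgeR adjusted p = 0.0316), while the list's median was -0.17. Of 17 reported angiotensin II responses of fibroblasts, 2 were called higher (median 0.66), beside the same 1.10%. Edn1, the endothelin-1 precursor, rose by 1.95 ± 0.26 (edgeR adjusted p = 0.0188) and Ctgf, a matrix-associated growth factor, by 2.67 ± 0.40 (edgeR adjusted p = 0.0236) on the log2 scale. Col3a1 and Fn1, matrix genes of the same list, were not called by edgeR and averaged lower in KPC Scr than in Sham. Fn1 averaged 8838 ± 470 CPM in miR-27a-KD and 3207 ± 2579 CPM in KPC Scr (SD, n = 3 each). In Sham it averaged 8950 ± 1016 CPM (n = 2). Col3a1 averaged 15778 ± 3135, 4029 ± 5277 and 17831 ± 6571 CPM in the same order. Of the 17, 10 had positive and 7 negative log2 changes in KPC Scr against Sham. DESeq2 called 8 of them there, Fn1 among them, beside 15.2% of all genes. At an edgeR unadjusted p under 0.05 stood 11 of the 17, beside 29.2% of all genes.

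In the remaining lists, edgeR called 1 of 10 tested kinin, natriuretic peptide and endothelin genes higher in KPC Scr against Sham. It also called 1 of 6 tested genes of the mineralocorticoid list higher, beside 1.10% of all genes for both. None of 9 tested relatives of the peptidases was called. At an edgeR unadjusted p under 0.05 stood 5 of the 10, 4 of the 6 and 4 of the 9, beside 29.2% of all genes. DESeq2 called 3, 4 and 0 of them, beside 15.2% of all genes. Kng2, a kininogen, had 4.31, 1.23 and 2.97 CPM in miR-27a-KD, 23.98, 18.1 and 13.5 CPM in KPC Scr, and 1.08 and 1.45 CPM in Sham, a log2 change of 3.87 ± 0.54 in KPC Scr against Sham (edgeR adjusted p = 0.0206). Its relative Kng1 had 358 reads in KPC Scr 1 of 359 in all, and reads of this pair may be shared. Hsd11b1, which activates glucocorticoids, had 276, 243 and 273 CPM in miR-27a-KD, 999.8, 426 and 880 CPM in KPC Scr, and 213 and 204 CPM in Sham. Its log2 change was 1.88 ± 0.34 in KPC Scr against Sham (edgeR adjusted p = 0.0378). Nr3c2, the mineralocorticoid receptor, was not called and had 9.87, 10.9 and 9.13 CPM in KPC Scr, and 7.02 and 12.8 CPM in Sham. Cyp11b2 had 0 reads in all 8 libraries. A call in this list is thus no measure of mineralocorticoid signalling.

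Over all 7 lists, 9 genes were called in KPC Scr against Sham, and each was called in 5 to 10 of 16 alternative settings, with highest adjusted p-values of 0.206 to 0.359. None of the 9 was called without Sham 1 or without Sham 2. In miR-27a-KD against KPC Scr and against Sham, edgeR called none of the list genes. DESeq2 called 24 of them against KPC Scr (17.0% of all genes) and 1, Il6, against Sham (0.183% of all genes). The 24 were 2 of 10 other pathway genes, 2 of 9 peptidase relatives, 3 of 18 AT1 signalling genes and 6 of 17 angiotensin II responses. The rest were 6 of 14 Agt regulators and 2 of 10 kinin, natriuretic peptide and endothelin genes. To these came 3 of 6 genes of the mineralocorticoid list (Hsd11b1, Sgk1 and Fkbp5). At an unadjusted p under 0.05 in miR-27a-KD against KPC Scr stood 2 of the 10 other pathway genes, 4 of the 9 peptidase relatives, 5 of the 18 AT1 signalling genes and 9 of the 17 angiotensin II responses, beside 32.4% of all genes. So did 8 of the 14 Agt regulators, 4 of the 10 kinin, natriuretic peptide and endothelin genes and 4 of the 6 genes of the mineralocorticoid list.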

How the data were processed

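The deposited values are raw read counts per gene symbol, not normalised by the authors, for 24419 rows and 8 libraries of sorted progenitors. Per the labels, RNA had an integrity number of 7 or more, the kit was Illumina's stranded mRNA preparation, and reads were pairs of 59 bases. The submitters' processing notes name mm10 as the build, and DESeq2 1.36.0, R 4.2.1, STAR, Bowtie and bcl2fastq 2.20 as tools. What each did is not given in the sources used here, nor are the counting program, its strand setting or its annotation. There are no molecular identifiers, so duplicate reads cannot be told from separate molecules. Depth bears on counting error and on which genes pass the low-count filter.

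Here, edgeR 4.0.16 under R 4.3.3 was fitted to the counts after a filter with filterByExpr (minimum count 10, minimum total 15) and TMM scaling, and normalised CPM are CPM on those scaled library sizes. The quasi-likelihood fit used 3 group means over all 8 libraries, so the groups share 1 estimate of spread. Tests were two-sided, with Benjamini-Hochberg adjustment over all 13646 genes and a threshold of 0.05. Errors of log2 changes are standard errors. The labels call the libraries biological replicates without saying how the mice were housed or batched, so p-values measure the spread between these libraries. The fit was checked on simulated data with 1 spread per gene shared by all groups, so the wider spread of the KPC Scr libraries was not covered. Alternatives were DESeq2 size factors, no filter, DESeq2 1.42.0, limma-voom (limma 3.58.1), the legacy edgeR method, the replicate number as a block, the 2 groups alone, each library left out, and KPC Scr 1 and 2 left out together, which was added after the data were seen.

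The members and lists were chosen with earlier results of these data known. Genes named from each list were the called ones with a mean of at least 1 CPM, at most 4 by smallest p, or, where none was called, the 2 with the highest mean, of which part are printed. Ctsa is among these. Prcp, Agtrap, Nr3c1, Nr3c2, Cyp11b2 and the genes with reads in 1 library were singled out after their values were seen. So was the hepatocyte list. Genes printed from the marker lists of cell types followed no such rule. Log2 CPM for the likeness to Agt used a prior count of 2, and 6 genes were taken. Gene positions, exon lengths and 3′ UTRs came from GENCODE M21 on GRCm38, the same build as mm10, and promoter and microRNA sequences from RefSeq. Some single-gene values are not reported here.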

Additional observations from a re-analysis of the deposited data

How the results depend on the processing

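Agt, the member called in the reported fit, kept its direction in every setting, which its groups without overlap made all but certain. Agtr2 did not: in KPC Scr against Sham its log2 change was 0.33 in the reported fit, -1.62 with limma-voom and -3.67 without KPC Scr 2, and in miR-27a-KD against KPC Scr it ran from -0.46 without KPC Scr 1 to 4.21, a call, without KPC Scr 2. Agtr1a and Lnpep (KPC Scr against Sham), Mme (miR-27a-KD against KPC Scr), and Ace and Lnpep (miR-27a-KD against Sham), none of them called there, also took both signs. Of the members' log2 changes under alternatives 365 moved by less than the spread between replicates and 18 by more. The numbers of genes called were 215 for KPC Scr against Sham, 7 for miR-27a-KD against KPC Scr and 1 for miR-27a-KD against Sham. DESeq2 called 2074, 2320 and 25 in those comparisons, and 26, 24 and 1 list genes in place of 9, 0 and 0, with 1 member in miR-27a-KD against Sham in place of 0. The legacy edgeR method called 133 genes for KPC Scr against Sham, and 1 gene and 0 members for miR-27a-KD against KPC Scr. With no low-count filter, 11 genes were called for miR-27a-KD against KPC Scr, and 2 genes and 1 member for miR-27a-KD against Sham. With only the 2 groups compared in the fit, 4, 0 and 101 genes were called, 0 list genes for KPC Scr against Sham, 0 members for miR-27a-KD against KPC Scr, and 1 member and 4 list genes for miR-27a-KD against Sham. The cause was not tested. Beside the counts of 0 genes for miR-27a-KD against KPC Scr, 3622 genes stood at an unadjusted p under 0.05 with the 2 groups alone and 4165 with the block.

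Leaving out 1 library at a time gave 0 to 6908 genes, 0 to 4 members and 0 to 47 list genes for KPC Scr against Sham. It gave 0 to 7313 genes, 0 to 6 members and 0 to 45 list genes for miR-27a-KD against KPC Scr, and 0 to 32 genes, 0 to 1 member and 0 to 1 list gene for miR-27a-KD against Sham. The highest counts were without KPC Scr 2, and without Sham 1 none was called. With KPC Scr 1 and KPC Scr 2 both left out, an alternative chosen after seeing the data because of the liver transcripts and the first principal component, 1 KPC Scr library remained and was assumed to vary like the other groups. It gave 5696 genes, 4 members and 42 list genes for KPC Scr against Sham, 5923, 4 and 44 for miR-27a-KD against KPC Scr, and 105, 1 and 4 for miR-27a-KD against Sham.

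Whether the replicate numbers pair the libraries was not settled. Same-numbered libraries deviated from their group means with correlations of -0.02 and -0.06 (KPC Scr with Sham), 0.07, -0.00120 and 0.17 (miR-27a-KD with KPC Scr), and 0.01 and 0.00603 (miR-27a-KD with Sham). Unlike-numbered miR-27a-KD and KPC Scr libraries gave -0.149 to 0.0683. The 2 Sham libraries deviate as mirror images of each other, so the correlations with Sham cannot decide on pairing. With the number as a replicate block, 16 genes and 1 list gene were called for KPC Scr against Sham, 0 genes and 0 members for miR-27a-KD against KPC Scr, and 0 genes for miR-27a-KD against Sham. Agtr2 rests on at most 31 reads in a library, and on 0, 31 and 1 reads in the KPC Scr libraries.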
